A study of Mus musculus with 4 samples.

Results

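The genes described here are the ligands and receptors of axon guidance, 62 of the 31053 genes in the count matrices. They were chosen by symbol: all genes whose names start with Sema, Plxn, Epha, Ephb, Efna, Efnb, Robo, Slit (other than the Slitrk genes), or Unc5, together with Nrp1, Nrp2, Dcc, Neo1, Ntn1, and Ntn4. Of the 73 genes that matched, 62 had at least 100 unique molecular identifiers (UMIs, each one a captured transcript) over the 4 libraries. They comprise 20 semaphorins, 11 plexins and neuropilins, 8 ephrins, 12 Eph receptors, 4 genes of Slit and Robo, 6 of netrin and its receptors, and Unc50, which matches by its first letters only and is not a guidance gene. The 11 genes left out had 0 to 82 UMIs and were Dcc, Epha1, Epha2, Ntn1, Plxna4os1, Plxna4os2, Plxna4os3, Robo3, Robo4, Slit3, and Unc5cl. The netrin receptor gene Dcc and the ligand gene Ntn1 are therefore not followed further. The 62 genes held 866920 of 828842795 UMIs (0.105%), from 122 to 94177 UMIs each.

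The 4 libraries are called Male-Sham and Female-Sham (sham surgery) and Male-CCI and Female-CCI, where CCI is chronic constriction injury, which was applied to both sciatic nerves. They hold GFP+ cells sorted from L4-5 dorsal root ganglia (DRGs) on day 7 after surgery. All mice were adult PirtEGFPf heterozygotes of 7 to 8 weeks of age on a C57BL/6 background, in which farnesylated GFP replaces the coding sequence of 1 Pirt allele and is driven by the Pirt promoter, so the controls carry that allele too. Each library pools 20 DRGs of 5 mice, and the spread between mice was not measured. Each surgery thus has 2 replicates, 1 male and 1 female. Because all littermates got 1 kind of surgery, litter and surgery cannot be told apart. The male and the female pool of a surgery can also hold littermates, so its 2 replicates may not be independent.

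Axon guidance genes encode cues and the receptors by which a growth cone reads them. Secreted and membrane-bound semaphorins signal through plexins, with neuropilins as co-receptors for most class 3 semaphorins. Ephrins are bound to the membrane and signal to Eph receptor tyrosine kinases on the neighboring cell, and can also signal back into the cell that carries them. Slits repel axons through Robo receptors, whereas netrins attract through Dcc and Neo1 and repel when Unc5 receptors take part. Many of these genes stay expressed in adult sensory neurons, and some are known for roles in the regrowth of a cut or crushed peripheral nerve.

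The matrices held 5019 and 8035 cells in the male and female sham and 4019 and 6618 cells in the male and female CCI libraries, of which 3471, 5548, 2947, and 3749 passed the filters. The neurons among them gave 159902783 to 189489772 UMIs per library, and levels are given in CPM, the UMIs of a gene per 1000000 UMIs of such a sum. Of the kept cells, 904 of 15715 carried a barcode that another library also held, in most cases on a partner that did not pass the filters (median 632 UMIs). Cluster names rest on marker genes and end in -like. NF stands for neurofilament (large myelinated), NP for nonpeptidergic, PEP for peptidergic, cLTMR for C-fiber low-threshold mechanoreceptor, and SGC for satellite glial cell. These names do not exclude markers of other classes. In Male-Sham and Female-Sham the 8 PEP1 markers summed to 7625 and 8174 CPM in NF2-like and 714 and 652 CPM in NF1-like neurons. They summed to 13293 and 12758 CPM in NP3-like and 29388 and 28351 CPM in PEP1-like neurons. The 8 NF2 markers summed to 2385 and 2345 CPM in NF2-like and 3492 and 3399 CPM in NF1-like neurons. CCI-ind clusters carry markers of the CCI-induced clusters of the study and hold mainly cells of the CCI libraries. The 62 genes were left out of the clustering. The 8 SGC markers, all of them detected, summed to 2675 and 3096 CPM in sham neurons and 1963 and 2197 CPM in CCI neurons. UMIs were summed over the neurons of a library, and a sum cannot tell fewer cells of a class from less RNA per cell. The comparisons below share libraries and are not independent of each other. A gene was called when its p in the quasi-likelihood test of edgeR, adjusted by Benjamini-Hochberg over all genes tested, was below 0.05 and its absolute log2 fold change above 0.5.

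The first comparison asked which guidance genes differ between all neurons of the CCI libraries and all neurons of the sham libraries. Of the 62 genes 8 rose and 11 fell after CCI, 30.6% in all, where 27.8% of all genes tested were called, 15.2% higher and 12.7% lower. The genes that rose were Sema6a, Efna4, Ephb1, Ephb2, Plxnb1, Sema3c, Plxna4, and Sema4a. Those that fell were Sema5b, Sema3e, Ephb4, Sema4g, Sema6b, Plxnc1, Sema7a, Epha8, Epha4, Efnb1, and Sema3f. The median log2 fold change of the 62 genes was -0.19, against -0.01 for all genes tested.

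Among the ligands, the transmembrane semaphorin Sema6a changed most. It had 4.87 and 8.26 CPM in the sham libraries and 121 and 121 CPM in the CCI libraries (log2 fold change 4.25, SE 0.319, adjusted p = 0.00265). Both CCI libraries stood far above both sham libraries. Sema3c, a secreted class 3 semaphorin (chr5:17574281-17730268 of GRCm38, plus strand), had 9.60 and 10.5 CPM in the sham libraries and 25.1 and 21.1 CPM in the CCI libraries (log2 fold change 1.25, SE 0.101, adjusted p = 0.000134). Sema4a, a transmembrane class 4 semaphorin, rose least of the 8, from 2.1 and 2.61 CPM to 3.87 and 3.64 CPM (log2 fold change 0.73, adjusted p = 0.00338). Efna4, a GPI-anchored ephrin (chr3:89333390-89338028, minus strand), had 0.160 and 0.222 CPM in the sham libraries and 1.13 and 1.07 CPM in the CCI libraries (log2 fold change 2.57, SE 0.209, adjusted p = 0.000113). Its 2 CCI values also lay several times above its 2 sham values. The SGC-like cells of the sham libraries had 51.7 CPM of Sema6a and 48.2 CPM of Sema3c, above the sham neurons, and the part of SGC transcripts in these levels was not tested.

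The plexins and the Eph receptors held the other genes that rose. Plxna4, a plexin that with neuropilins transduces class 3 semaphorins and also binds class 6 semaphorins (chr6:32144268-32588192, minus strand), had 69.5 and 70.7 CPM in the sham libraries and 156 and 146 CPM in the CCI libraries (log2 fold change 1.16, SE 0.0550, adjusted p = 1.61e-05). Plxnb1, a receptor of class 4 semaphorins (chr9:109095389-109119917, plus strand), had 1.64 and 1.75 CPM in the sham libraries and 3.53 and 4.30 CPM in the CCI libraries (log2 fold change 1.26, SE 0.128, adjusted p = 0.000285). Both plexins had CCI values that did not overlap with the sham values. Ephb1 (chr9:101922128-102354693, minus strand), a receptor of B-type ephrins, had 0.407 and 0.269 CPM in the sham libraries and 1.25 and 1.60 CPM in the CCI libraries (log2 fold change 2.14, SE 0.235, adjusted p = 0.000407). Ephb2 (chr4:136647539-136835988, minus strand), of the same class, had 1.33 and 1.29 CPM in the sham libraries and 3.18 and 3.21 CPM in the CCI libraries (log2 fold change 1.34, SE 0.107, adjusted p = 0.000106). Within each surgery the 2 Ephb2 values lay close together.

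The 2 largest falls were those of semaphorins. Sema5b, a transmembrane semaphorin, had 0.672 and 0.422 CPM in sham and 0.264 and 0.156 CPM in CCI (log2 fold change -1.31, adjusted p = 0.0158), and Sema3e, a secreted semaphorin that binds Plxnd1, had 8.15 and 9.62 CPM in sham and 3.58 and 4.94 CPM in CCI (log2 fold change -1.01, adjusted p = 0.00438). The other 4 semaphorins fell by less. Sema4g had 2.48 and 2.31 CPM in sham and 1.24 and 1.32 CPM in CCI (log2 fold change -0.85, adjusted p = 0.00113). Sema6b had 0.740 and 0.575 CPM in sham and 0.387 and 0.313 CPM in CCI (log2 fold change -0.85, adjusted p = 0.0152). Sema7a, a GPI-anchored semaphorin, had 4.44 and 3.36 CPM in sham and 2.23 and 1.99 CPM in CCI (log2 fold change -0.83, adjusted p = 0.00382). Sema3f, a ligand of Nrp2, had the smallest fall, with 11.9 and 11.1 CPM in sham and 8.25 and 7.10 CPM in CCI (log2 fold change -0.52, adjusted p = 0.00244). The CCI values of each of these genes lay below its sham values. Plxnc1, the receptor of Sema7a (chr10:94790866-94944835, minus strand), had 127 and 113 CPM in sham and 65.4 and 64.1 CPM in CCI (log2 fold change -0.83, SE 0.0626, adjusted p = 8.26e-05).

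Of the Eph receptors, Ephb4 had 0.210 and 0.201 CPM in sham and 0.0738 and 0.125 CPM in CCI (log2 fold change -0.98, adjusted p = 0.0371). Epha8 had 2.90 and 3.31 CPM in sham and 1.79 and 1.68 CPM in CCI (log2 fold change -0.78, adjusted p = 0.00188), and Epha4, a receptor of ephrins of both types, had 0.493 and 0.496 CPM in sham and 0.301 and 0.263 CPM in CCI (log2 fold change -0.75, adjusted p = 0.016). The CCI values of all 3 receptors lay below their sham values. The B-type ephrin Efnb1 had 8.97 and 9.04 CPM in sham and 5.19 and 5.93 CPM in CCI (log2 fold change -0.64, adjusted p = 0.000589). SGC-like cells of the sham libraries held 10.5 CPM of Ephb4 and 99.0 CPM of Efnb1, against 0.204 and 9.17 CPM in Sprr1a- sham neurons. Without the neuronal clusters that held at least 5 SGC markers, Ephb4 was no longer called (log2 fold change -0.58, adjusted p = 0.222), whereas the other genes called in all neurons still were. Ephb4, Sema6b, and Epha4 lost their calls in DESeq2, and Ephb4 also without any 1 of 3 libraries, Male-Sham, Female-Sham, or Male-CCI. Without Male-Sham 15 genes were called and without Female-CCI 16, against 19 with all libraries. Sema5b, Sema6b, and Sema3f lost their calls without either of these libraries, and Epha4 without Female-Sham or Female-CCI. With cells of shared barcodes left out, Sema5b, Sema7a, Epha4, and Sema3f were not called, and Sema3f was not called with the libraries merged without integration.

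The other 43 genes were not called. Of the 6 genes of netrin and its receptors (Neo1, Ntn4, Unc5a, Unc5b, Unc5c, and Unc5d) none was called and all had lower mean levels after CCI, with log2 fold changes from -0.45 to -0.19 and a median of -0.31. An unadjusted p below 0.05 was found for 5 of these 6 genes in the same edgeR test, and for 43 of all 62 guidance genes. The share of all genes below this unadjusted p is not given here, so these counts cannot be set against a background. The 4 genes of Slit and Robo were not called either, with Robo2 at 103 and 99.6 CPM in sham and 73.4 and 74.9 CPM in CCI (log2 fold change -0.39, adjusted p = 0.000432) and the ligand Slit1 at 17.5 and 17.3 CPM in sham and 16.5 and 17.8 CPM in CCI (log2 fold change 0.03, adjusted p = 0.665). Slit1 overlapped between the surgeries, whereas Robo2 was lower in both CCI libraries by less than the fold required. Plxnd1, the receptor of Sema3e, lay just outside the fold limit with 49.6 and 48.0 CPM in sham and 33.1 and 33.4 CPM in CCI (log2 fold change -0.50, adjusted p = 8.32e-05). The co-receptors Nrp1 and Nrp2 had log2 fold changes of -0.34 and -0.22 and were not called.

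**Figure D1:**
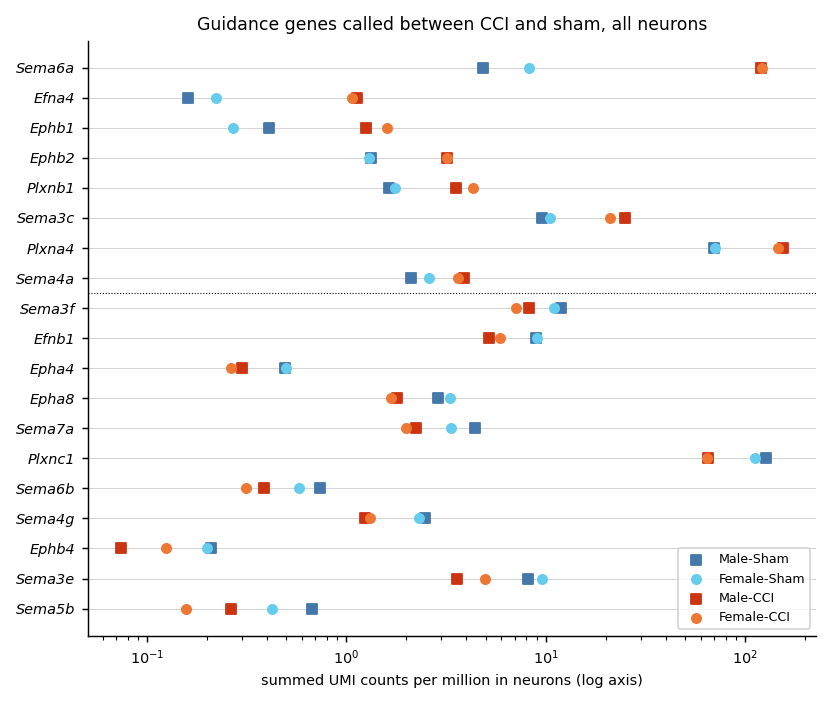
Level of the 19 called guidance genes in all neurons of each library, in CPM on a log axis, with squares for male and circles for female libraries and blue for sham and red or orange for CCI. The 8 genes that rose include Sema6a, with 4.87 and 8.26 CPM in sham and 121 CPM in each CCI library, and the CCI values of the 11 genes that fell all lie left of their sham values.

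The second comparison split the neurons of each CCI library by Sprr1a, a gene that sensory neurons switch on after axon injury and by which the study tells injured from spared neurons. A neuron was Sprr1a+ when its log-normalized Sprr1a value was above 1. Male-CCI held 1467 Sprr1a+ and 1350 Sprr1a- neurons and Female-CCI 1789 and 1848, and the library was a block in the fit, so that each Sprr1a+ sum was set against the Sprr1a- sum of the same library. Of the 61 guidance genes tested (Ephb4 did not pass the filter on low counts), 11 were higher and 31 lower in Sprr1a+ neurons (68.9%), where 45.6% of all genes were called, 20.9% higher and 24.7% lower. The median log2 fold change of the guidance genes was -0.57, and that of all genes 0.00. On plain CPM the values of this comparison lie 0.173 lower on the log2 scale (median over genes) than with TMM, and no called guidance gene changed its direction.

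Sema6a had 211 and 223 CPM in Sprr1a+ neurons and 14.1 and 17.7 CPM in Sprr1a- neurons (log2 fold change 3.95, SE 0.0685, adjusted p = 1.89e-07), with both Sprr1a+ values far above both Sprr1a- values. Efna4 had 1.94 and 1.89 CPM in Sprr1a+ neurons and 0.174 and 0.240 CPM in Sprr1a- neurons (log2 fold change 3.37, SE 0.234, adjusted p = 2.98e-07), again with the higher values in Sprr1a+ neurons of both libraries. The other genes that were higher were the semaphorins Sema3c, Sema4a, and Sema3d, the plexins Plxnb1, Plxna4, and Plxna3, the receptors Ephb1 and Ephb2, and the ephrin Efna2, with log2 fold changes from 0.62 (Plxna3) to 1.95 (Sema3c).

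The genes that were lower in Sprr1a+ neurons came from each of the 6 families. Sema3a, a secreted class 3 semaphorin that repels sensory axons, had 1 UMI in Sprr1a+ and 45 UMIs in Sprr1a- neurons over both libraries, a ratio of 0.0203 in CPM with an exact 95% interval of 0.000502 to 0.119 that covers counting error only. Epha4 had 0.0341 and 0.0372 CPM in Sprr1a+ neurons and 0.616 and 0.492 CPM in Sprr1a- neurons (log2 fold change -3.74, SE 0.433, adjusted p = 1.83e-05), and Sema5b had 0.0227 and 0.0372 CPM in Sprr1a+ neurons and 0.549 and 0.277 CPM in Sprr1a- neurons (log2 fold change -3.57, SE 0.519, adjusted p = 0.000105). Few UMIs of these 3 genes were thus counted in Sprr1a+ neurons. Unc5b, a netrin receptor that takes part in repulsion, had 1.58 and 1.40 CPM in Sprr1a+ neurons and 9.47 and 10.6 CPM in Sprr1a- neurons (log2 fold change -2.57, SE 0.109, adjusted p = 7.6e-09). Plxnc1 had 34.6 and 33.8 CPM in Sprr1a+ neurons and 102 and 94.9 CPM in Sprr1a- neurons (log2 fold change -1.35, adjusted p = 1.99e-10). Robo2, a Slit receptor, had 44.4 and 44.9 CPM in Sprr1a+ neurons and 108 and 105 CPM in Sprr1a- neurons (log2 fold change -1.08, adjusted p = 6.34e-10). All 3 receptors lay lower in the Sprr1a+ neurons of both libraries.

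By family, 4 semaphorins were higher and 10 lower of 20 tested, and 3 plexins and neuropilins were higher and 5 lower of 11. Of 11 Eph receptors 2 were higher and 6 lower, and of 8 ephrins 2 and 3. Among Slit and Robo genes 3 of 4 were lower (Slit2, Robo1, and Robo2) and none higher, and among netrin and its receptors 4 of 6 (Unc5b, Unc5c, Unc5d, and Ntn4) and none higher. The class 3 semaphorin co-receptors Nrp1 and Nrp2 were both lower, Nrp1 at 9.25 and 8.51 CPM in Sprr1a+ neurons and 34.6 and 41.1 CPM in Sprr1a- neurons (log2 fold change -1.91, adjusted p = 3.62e-05) and Nrp2 at 20.6 and 17.3 CPM in Sprr1a+ neurons and 38.6 and 40.3 CPM in Sprr1a- neurons (log2 fold change -0.89, adjusted p = 0.000389). The SGC markers summed to 1717 and 2091 CPM in Sprr1a+ and 2253 and 2305 CPM in Sprr1a- neurons. Sprr1a+ and Sprr1a- neurons also differed in which classes they came from, and its part in these values was not tested within this comparison. When any neuron with a Sprr1a UMI was counted as Sprr1a+, 30 genes were called in place of 42, and Epha4 and Sema5b were not (adjusted p = 0.191 and 0.538 in edgeR).

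**Figure D2:**
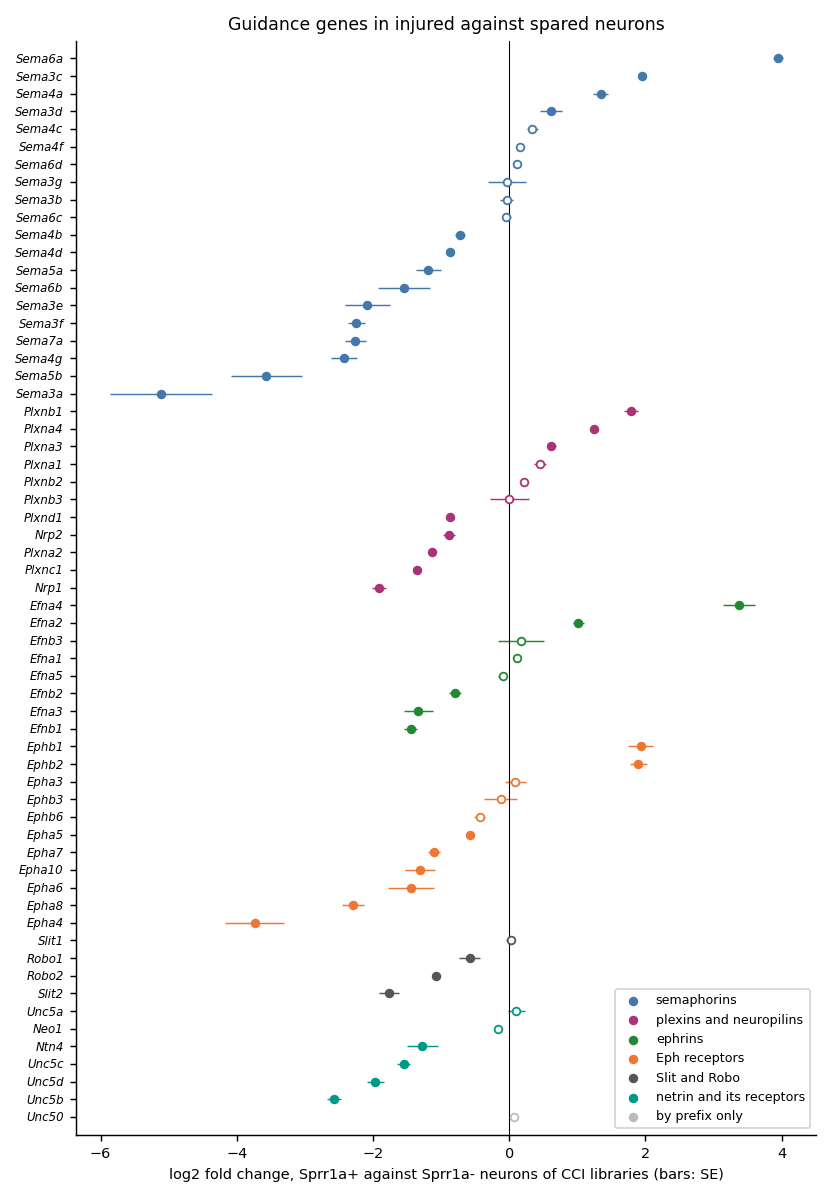
Log2 fold change (TMM-normalized, edgeR) of each tested guidance gene between Sprr1a+ and Sprr1a- neurons within the 2 CCI libraries, by family, with bars of 1 SE and filled points for called genes. Sema6a (3.95) and Efna4 (3.37) lie highest, and no gene of Slit and Robo or of netrin and its receptors is called higher.

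The sham libraries also held Sprr1a+ neurons, 42 in Male-Sham and 144 in Female-Sham. Their Sema6a level was 148 and 158 CPM, against 2.61 and 3.34 CPM in the Sprr1a- neurons of the same libraries. Plxna4 had 245 and 219 CPM in these neurons, against 66.7 and 65.9 CPM, and Sema3c had 43.2 and 46.2 CPM, against 9.07 and 9.35 CPM. The few Sprr1a+ neurons of sham mice thus lay above the Sprr1a- neurons of sham mice for these 3 genes in both libraries. Ephb1 was at 0.793 and 0.166 CPM in them, from only 2 and 1 UMIs, and in Sprr1a+ neurons of CCI at 1.81 and 2.51 CPM. These levels are a description without a test.

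The promoter windows of the guidance genes were searched for 2 motifs that are bound by factors known to act in injured neurons, the AP-1 motif TGANTCA (bound by Jun and Fos proteins) and the full palindrome of the cyclic AMP response element (bound by Creb and Atf proteins). Windows run from 250 bases before to 50 bases after a transcription start, with sequences from RefSeq on GRCm38.p6, and both strands were searched. The full palindrome cannot hold an AP-1 motif of this form. Of the 62 genes 54 had a window, and Efnb3, Plxna1, Plxna4, Sema3b, Sema3f, Sema6a, Slit1, and Unc5d had none. An AP-1 motif was found in 3 of them (5.56%), against 8.97% of 27025 genes with a window, and the cyclic AMP response element in 0, against 2.03% of genes. The 3 genes were Sema4c, Sema4d, and Sema6b, of which Sema6b fell in all neurons after CCI, Sema4d was lower in Sprr1a+ neurons, and Sema4c was called in neither comparison. Of the 8 genes that rose in all neurons 6 had a window, and none of these 6 held either motif. The window of Sprr1a, the gene that marks injured neurons, held the AP-1 motif at 2 places. The matches are shown with 10 bases on either side, in the sense of the gene, with the motif in capitals, to let the sites of the 3 guidance genes be read against those of Sprr1a. They lie at chr1:36558387-36558413 for Sema4c, chr13:51749033-51749059 for Sema4d, chr17:56133884-56133910 for Sema6b, and chr3:92485981-92486007 and chr3:92486011-92486037 for Sprr1a, all on the minus strand.
Sema4c: gcgcagacctTGACTCAcgagctgcaa
Sema4d: cccacatcccTGAATCAgcctatatag
Sema6b: acacgtactcTGAGTCAcaaatcctgg
Sprr1a: gggaggagggTGAGTCAtaggtgactg
Sprr1a: taactaaagcTGAGTCAgagggtgaac
A match is a run of letters and does not show that a factor binds there.

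The third comparison set Sprr1a+ neurons of the CCI libraries against Sprr1a- neurons of the sham libraries within a class, for the 3 classes with at least 10 cells in every sum. In NF1-like neurons 34 of 53 guidance genes tested were called (13 higher, 21 lower), where 45.5% of all genes were. In NF2-like neurons 23 of 39 were called (9 higher, 14 lower), with 44.0% of all genes, and in NP1-like neurons 22 of 36 (13 higher, 9 lower), with 41.6%. These shares are 64.2%, 59.0%, and 61.1% of the guidance genes tested. The sums held 55 and 33 Sprr1a+ neurons of CCI against 148 and 165 sham neurons in NF1-like. In NF2-like they held 85 and 84 against 77 and 94, and in NP1-like 98 and 113 against 83 and 71 neurons. On plain CPM the log2 values lie 0.324 lower in NF1-like and 0.228 lower in NF2-like neurons than with TMM, and none of the 79 calls changed direction. Over all neurons of each class in the CCI libraries, the 10 CCI-ind markers summed to 6047 and 3452 CPM in NF1-like, 7947 and 6020 in NF2-like, and 5422 and 4906 in NP1-like, against 38.8 to 665 CPM in sham. The SGC markers summed to 1074 to 1487 CPM over the 3 classes and 4 libraries. Of the NP1-like clusters, cluster 24 held mainly CCI cells (6 and 23 in sham, 103 and 122 in CCI) and cluster 26 mainly sham cells (82 and 63 in sham, 26 and 26 in CCI). The 7 NP1 markers summed to 3768 and 4196 CPM in NP1-like neurons of CCI, and 1966 and 2037 CPM in CCI-ind-like neurons. In sham they summed to 5402 and 6913 CPM and to 4126 and 4034 CPM. These markers are thus also found in CCI-ind-like neurons. Whether clusters 24 and 26 hold the same kind of neuron was not tested.

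Of 32 guidance genes tested in all 3 classes, 8 were called in all 3 (25%), where 17.7% of all genes were. Plxna4, Ephb2, and Sema3c were higher and Robo2 and Sema3f lower in each of them, whereas Efnb2, Nrp2, and Sema3d had opposite calls. Plxna4 had 66.3 and 73.0 CPM in sham and 158 and 110.2 CPM after CCI in NF1-like neurons (log2 fold change 1.32, adjusted p = 0.000159) and 176 and 183 CPM in sham and 312 and 295 CPM after CCI in NF2-like neurons (log2 fold change 0.99, adjusted p = 5.81e-06). In NP1-like neurons it had 11.4 and 17.2 CPM in sham and 152 and 152 CPM after CCI (log2 fold change 3.50, adjusted p = 4.2e-29). The class with the lowest sham level of Plxna4 therefore had the largest log2 change, and the effect of injury on Plxna4 differed between classes (interaction test of edgeR, adjusted p = 5.4e-06). Sema3c had 2.71 and 2.04 CPM in sham and 22.2 and 29.3 CPM after CCI in NF1-like (log2 fold change 3.69, adjusted p = 4.84e-08), 1.88 and 1.73 CPM in sham and 25.4 and 19.5 CPM after CCI in NF2-like (log2 fold change 3.87, adjusted p = 7.95e-07), and 30.6 and 24.7 CPM in sham and 47.0 and 42.6 CPM after CCI in NP1-like neurons (log2 fold change 0.74, adjusted p = 9.76e-06). NP1-like neurons of sham already held Sema3c at a level near that of the other 2 classes after CCI.

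Ephb2 had 4.56 and 3.88 CPM in sham and 6.66 and 7.03 CPM after CCI in NF1-like (log2 fold change 1.00, adjusted p = 0.0122) and 1.2 and 0.384 CPM in sham and 8.30 and 5.60 CPM after CCI in NF2-like neurons (log2 fold change 3.33, adjusted p = 0.000148). In NP1-like neurons it had 54 UMIs after CCI and 1 UMI in sham, a ratio of 27.1 in CPM (exact 95% interval 4.65 to 1088). The NF1-like call was lost in DESeq2, without Male-CCI and without Female-Sham (adjusted p up to 0.108). Sema3f fell from 35.3 and 31.5 CPM to 1.33 and 4.10 CPM in NF1-like neurons (log2 fold change -3.64, adjusted p = 4.22e-07). Its log2 fold change was -2.39 in NF2-like and -1.50 in NP1-like neurons (adjusted p = 8.46e-06 and 2.29e-06). For Robo2 the log2 fold change was -0.69, -1.26, and -0.91 in NF1-, NF2-, and NP1-like neurons. Robo2 fell in every class tested, in NF1-like neurons from 173 and 167 to 84.3 and 83.2 CPM.

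The injury effect differed between the 3 classes for 32 of the 53 guidance genes tested for it, where 39.2% of all genes passed (adjusted p below 0.05). Slit2, Sema7a, Unc5a, and Plxnb1 are among these 32, though each passed the filter of the fits by class in 1 class only. The interaction test treated the class sums as separate samples, with no term for the library they share. Of 42 guidance genes tested in at least 2 classes, 7 (16.7%) were called higher in 1 class and lower in another, where 4.38% of all genes were. The opposite calls of Nrp2, Sema3d, Plxna1, Unc5d, and Slit1 rest on NP1-like neurons, whose sham and CCI cells lay mainly in different clusters. The part of this difference between clusters in these calls was not tested. The smallest interaction p was that of Sema5a, a transmembrane semaphorin (chr15:32244810-32696341, plus strand), with 5.80 and 6.79 CPM in sham and 47.3 and 37.5 CPM after CCI in NF1-like neurons (log2 fold change 3.13, adjusted p = 1.03e-08) and 235 and 236 CPM in sham and 48.2 and 56.6 CPM after CCI in NF2-like neurons (log2 fold change -1.95, adjusted p = 9.22e-08). NF2-like neurons held far more Sema5a than NF1-like neurons in sham, but not after CCI (interaction adjusted p = 2.93e-13, edgeR). In all neurons Sema5a was not called, with 11.1 and 9.81 CPM in sham and 10.9 and 10.5 CPM in CCI. Efnb2, a B-type ephrin (chr8:8617434-8661242, minus strand), fell in NF1-like neurons, with 65.4 and 57.0 CPM in sham and 12.6 and 14.7 CPM after CCI (log2 fold change -1.87, adjusted p = 4.15e-07). It rose in NF2-like neurons, with 0.342 and 0.576 CPM in sham and 2.43 and 3.73 CPM after CCI (log2 fold change 2.89, adjusted p = 0.00123), and in NP1-like neurons, with 0.519 and 0.716 CPM in sham and 6.16 and 6.04 CPM after CCI (log2 fold change 3.35, adjusted p = 3.82e-07). The levels after CCI still differed, with NF1-like highest. Nrp2 fell in NF1-like and NF2-like neurons (log2 fold change -0.52 and -1.13) and rose in NP1-like neurons, with 3.37 and 3.22 CPM in sham and 18.6 and 10.8 CPM after CCI (log2 fold change 2.21, adjusted p = 1.22e-07). Sema3d fell in NF1-like neurons (log2 fold change -0.57, adjusted p = 0.0497), a call that was lost in 7 alternatives. In NF2-like neurons it had 3 UMIs after CCI and 42 in sham (ratio 0.0624, interval 0.0124 to 0.195), and in NP1-like neurons 27 and 2 (ratio 6.76, interval 1.70 to 58.7). Both intervals exclude 1, on opposite sides of it, and cover counting error only. The remaining opposite calls were those of Plxna1 (log2 fold change -0.76 in NF1-like and 1.66 in NP1-like), Unc5d (1.23 and -0.97), and Slit1 (0.59 and -0.83).

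Sema6a rose in NF1-like neurons, with 8.50 and 12.1 CPM in sham and 155 and 168 CPM after CCI (log2 fold change 4.30, SE 0.139, adjusted p = 8.36e-11), and in NF2-like neurons, with 12.6 and 13.8 CPM in sham and 193 and 247 CPM after CCI (log2 fold change 4.28, SE 0.141, adjusted p = 4.17e-09). In NP1-like neurons it had 0.519 and 13.6 CPM in sham and 158 and 168 CPM after CCI and was not called (log2 fold change 4.79, SE 0.925, adjusted p = 0.0564). The 2 sham libraries of this class stood far apart. Epha4 and Sema6b had no UMI in Sprr1a+ NF1-like neurons of either library, against 87 and 90 UMIs in sham. Set against 3 UMIs over the group, Epha4 was at least 7.75-fold and Sema6b at least 8.02-fold lower there. Sema7a fell in the same class, with 35.2 and 32.1 CPM in sham and 1.33 and 2.93 CPM after CCI (log2 fold change -3.90, adjusted p = 8.91e-08), and its receptor Plxnc1 in NP1-like neurons, with 249.6 and 201 CPM in sham and 29.8 and 27.2 CPM after CCI (log2 fold change -2.93, adjusted p = 9e-31). Both genes were well above 20 CPM in sham in these classes.

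**Figure D3:**
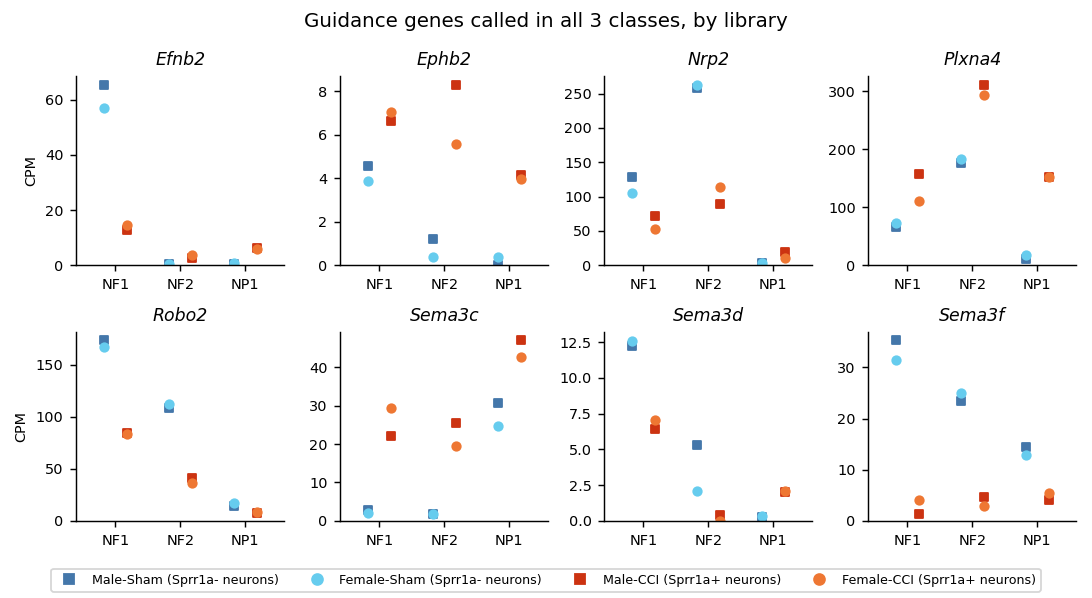
Level in CPM of the 8 guidance genes called in all 3 classes, in Sprr1a- neurons of the sham libraries (blue) and Sprr1a+ neurons of the CCI libraries (red or orange) of NF1-, NF2-, and NP1-like neurons, with 1 point per library. Plxna4, Ephb2, and Sema3c lie higher after CCI in each class and Robo2 and Sema3f lower, whereas Efnb2 falls from 65.4 and 57.0 CPM in NF1-like and rises in NF2- and NP1-like neurons.

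The fourth comparison asked whether guidance genes also differ in spared neurons, by setting the Sprr1a- neurons of the CCI libraries against those of the sham libraries in 10 classes. Over the classes 24 of 390 tests of a guidance gene in a class were called, 23 higher and 1 lower, from 12 genes. In PEP3/4-like neurons 6 of 43 were called (3.67% of all genes), in NP2-like 4 of 36 (4.47%), in NP3-like 3 of 35 (2.66%), in PEP1-like 3 of 42 (3.75%), and in PEP5-like 3 of 45 (3.43%). In PEP2-like neurons 2 of 41 were called (4.54%), in NF1-like 1 of 52 (1.07%), in NF2-like 1 of 35 (1.72%), in NP1-like 1 of 25 (3.97%), and in cLTMR-like 0 of 36 (1.15%). Among cLTMR-like neurons the tests of edgeR gave 5 of 36 guidance genes with an unadjusted p below 0.05. In the other classes this count ran from 6 of 52 in NF1-like to 15 of 43 in PEP3/4-like neurons. The shares of all genes given above are for called genes and not for this unadjusted p. These counts therefore cannot be set against a background.

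Sema6a was called in 5 classes, at levels far under those of Sprr1a+ neurons. It had 0.128 and 0.238 CPM in sham and 1.35 and 2.15 CPM after CCI in NP2-like neurons (log2 fold change 3.19, adjusted p = 0.00021), and 0.554 and 0.863 CPM in sham and 2.54 and 3.59 CPM after CCI in PEP1-like neurons (log2 fold change 2.09, adjusted p = 0.00224). In PEP5-like neurons it had 7.19 and 8.50 CPM in sham and 14.7 and 17.7 CPM after CCI (log2 fold change 1.00, adjusted p = 0.00127), the highest level of the 5 classes in both surgeries. Without Female-CCI and in DESeq2 the PEP5-like call was lost. The log2 fold change was 2.17 in NP3-like and 1.60 in PEP3/4-like neurons (adjusted p = 0.0288 and 0.0396). Both of these calls were lost in DESeq2, the NP3-like call also without Male-CCI or either sham library (adjusted p up to 0.339) and the PEP3/4-like call without either CCI library or at resolution 1.2 (up to 0.318). The PEP1-like call was lost in DESeq2 as well. The same sums held 19.0 to 34.8 CPM of Sprr1a in CCI and 0.259 to 4.65 CPM in sham, as a neuron below the limit can hold some Sprr1a UMIs. Without neurons that had any Sprr1a UMI, the calls of Sema6a in NP2-like and PEP1-like neurons were lost (adjusted p = 0.0616 and 0.987), as was that of Plxna4 in NP3-like neurons (0.0631), and 12 calls were made in place of 23 in the 9 classes that could be fitted. The part of RNA from injured cells in these low levels was not tested.

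The Eph receptors Epha5 and Epha7, which bind A-type ephrins, were called in more than 1 class. Epha7 rose in NP2-like, with 6.53 and 8.17 CPM in sham and 14.1 and 13.6 CPM after CCI (log2 fold change 0.89, adjusted p = 0.00022), and in PEP3/4-like neurons, with 2.6 and 4.48 CPM in sham and 7.63 and 10.2 CPM after CCI (log2 fold change 1.29, adjusted p = 0.00933). Its log2 fold change was 0.61 in PEP1-like and 0.86 in PEP5-like neurons. Epha5 rose in NP2-like, with 4.06 and 6.06 CPM in sham and 11.2 and 12.5 CPM after CCI (log2 fold change 1.21, adjusted p = 0.000668), and in PEP2-like neurons (log2 fold change 0.70). Between Sprr1a+ and Sprr1a- neurons of the CCI libraries, a comparison that shares the Sprr1a- neurons of CCI with this one, their log2 fold changes were -1.10 (Epha7) and -0.57 (Epha5). Unc5b rose in NP2-like neurons, with 3.65 and 3.54 CPM in sham and 11.3 and 9.64 CPM after CCI (log2 fold change 1.52, adjusted p = 3.02e-06), and in PEP1-like neurons, with 7.81 and 7.91 CPM in sham and 11.8 and 13.2 CPM after CCI (log2 fold change 0.68, adjusted p = 0.00381). Both CCI values lay above both sham values in each class. Plxna4 rose in NF2-like (log2 fold change 0.56) and NP3-like neurons (0.69). In PEP3/4-like neurons the co-receptors Nrp1 and Nrp2 rose (1.24 and 1.10), as did Sema6d (0.54) and Sema3a, which had 22 UMIs in CCI and 8 in sham (2.41). The Sema3a call was lost in DESeq2, without Female-CCI, and without either sham library (adjusted p up to 0.291). The other calls were Nrp1 in PEP5-like (1.47), Ntn4 in NP3-like (1.94), Plxnc1 in PEP2-like (0.63), and Sema4f in NP1-like neurons (0.58), all higher after CCI. The 1 gene that fell was Nrp2 in NF1-like neurons, with 129 and 105 CPM in sham and 72.0 and 62.4 CPM after CCI (log2 fold change -0.75, adjusted p = 0.00799).

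The level of the guidance genes over neuron classes was described in the sham libraries, with no test, over 11 classes. NF1-like neurons had the highest mean level of 16 of the 62 genes, PEP5-like of 11, and NF2-like, CCI-ind-like, and cLTMR-like of 6 each. The other 6 classes shared the rest, with 4 each in NP2-like and PEP1-like, 3 each in NP3-like and PEP2-like, 2 in PEP3/4-like, and 1 in NP1-like neurons. The 4 unnamed neuronal clusters are not among these classes. Of the 62 genes 31 reached 20 CPM in some class. The 12 of these 31 with the largest ratio of the highest to the second class are described here. The SGC markers summed to 6171 and 6619 CPM in PEP5-like sham neurons, against 1074 and 1176 CPM in NF1-like neurons, and the part of SGC transcripts in the PEP5-like levels was not tested.

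Among the 11 classes, NF1-like neurons led for 5 of the 12. Robo1, a Slit receptor, had 21.1 to 24.9 CPM in NF1-like and 5.96 to 5.98 CPM in NF2-like neurons, and Slit2, its ligand, had 53.7 to 66.6 CPM in NF1-like and 17.1 to 19.1 CPM in PEP5-like neurons. Sema7a had 32.1 to 35.2 CPM in NF1-like and 9.94 to 11.6 CPM in cLTMR-like neurons. The ephrin Efnb2 had 57.0 to 65.4 CPM in NF1-like and 23.8 to 27.8 CPM in cLTMR-like neurons, and Plxna1, a plexin that pairs with neuropilins, had 22.7 to 23.7 CPM in NF1-like and 12.4 to 14.4 CPM in cLTMR-like neurons. NF1-like neurons thus held both a Slit and a Slit receptor at their highest level. NF2-like neurons led for Sema5a, with 235 to 236 CPM in NF2-like and 27.2 to 27.4 CPM in PEP2-like neurons, and for Nrp2, with 258 to 263 CPM in NF2-like and 105 to 129 CPM in NF1-like neurons. For Nrp2 both NF classes stood above all others, and the next class, PEP1-like, had 53.0 and 48.0 CPM. cLTMR-like neurons led for Sema3e, with 60.4 to 61.4 CPM in cLTMR-like and 7.42 to 13.3 CPM in NF1-like neurons, for Efnb1, with 32.6 to 34.6 CPM in cLTMR-like and 12.4 to 12.8 CPM in PEP5-like neurons, and for Slit1, with 40.7 to 45.8 CPM in cLTMR-like and 22.7 to 23.0 CPM in PEP5-like neurons. The lowest class was NP3-like for Sema3e (0.123 CPM) and NP3-like for Slit1 (0.943 CPM). NP3-like neurons led the 11 classes for Unc5d, with 23.1 to 26 CPM in NP3-like and 13.7 to 14.0 CPM in PEP3/4-like neurons. The unnamed clusters change this order for several genes. Cluster 8 had 34.0 and 31.1 CPM of Efnb1 in sham, close to the cLTMR-like values, and 44.4 and 43.2 CPM of Sema3e, 39.6 and 33.8 CPM of Slit1, and 8.97 and 10.4 CPM of Robo1, above the second class of each. Cluster 23 had 96.5 and 90.4 CPM of Unc5d, above NP3-like neurons.

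Sema6a was highest in CCI-ind-like neurons also in the sham libraries, with 154 and 161 CPM from 43 and 139 cells. Next came NP1-like neurons with 11.6 and 39.0 CPM, NF2-like with 12.6 and 13.8 CPM, NF1-like with 8.50 and 12.1 CPM, PEP5-like with 7.19 and 8.49 CPM, PEP2-like with 2.63 and 2.18 CPM, PEP3/4-like with 0.612 and 1.92 CPM, PEP1-like with 0.554 and 0.863 CPM, cLTMR-like with 0.478 and 0.909 CPM, NP3-like with 0.240 and 0.667 CPM, and NP2-like with 0.128 and 0.238 CPM. The NP1-like values spanned those of NF2-like neurons, so these 2 neighbors in the order were not separated, whereas CCI-ind-like neurons stood apart from all others. These classes include Sprr1a+ neurons of the sham libraries. The plexin Plxnc1 was highest in the nonpeptidergic classes, with 297 to 301 CPM in NP2-like and 263 to 268 CPM in NP3-like neurons. NP1-like neurons had 234 and 171 CPM. Of these classes, NP3-like neurons also held PEP1 markers, as given above. Next in mean level came PEP1-, NF1-, cLTMR-, PEP3/4-, CCI-ind-, NF2-, and PEP2-like neurons, in this order. PEP5-like neurons were the lowest of the 11 classes, with 3.65 and 3.43 CPM, and are thus the most extreme contrast. The unnamed clusters lay between the NP1-like and the PEP5-like values, with 112 and 104 CPM in cluster 20 and 86.5 and 81.1 CPM in cluster 8. Cluster 4 had 39.5 and 44.2 CPM and cluster 23 had 8.19 and 9.60 CPM of Plxnc1. Robo2 had 186 to 189 CPM in PEP5-like and 167 to 173 CPM in NF1-like neurons, and its level was lowest in NP1-like neurons (14.7 and 15.8 CPM). Plxnc1 and Robo2 were named after their values were seen.

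**Figure D4:**
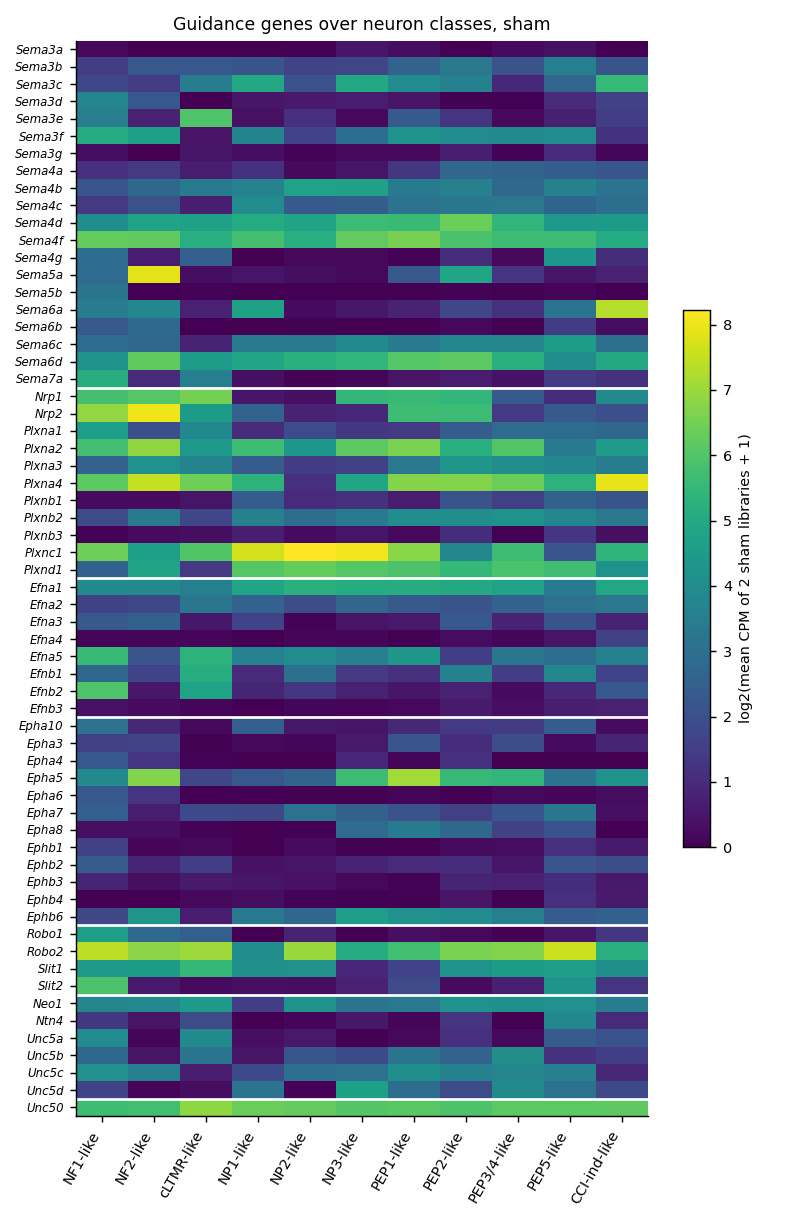
Mean level in the 2 sham libraries, as log2(CPM + 1), of the 62 genes by family over the 11 neuron classes, with lighter colors for higher levels. Sema5a and Nrp2 are highest in NF2-like neurons (235 and 236 CPM and 258 and 263 CPM), and Sema6a in CCI-ind-like neurons (154 and 161 CPM).

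The CCI-ind-like class was made of 5 clusters, numbered 0, 11, 17, 18, and 22, with 1265 cells of Male-CCI and 1601 of Female-CCI in all. Their levels are means of the 2 CCI libraries and are given in that order without a test, and the genes named here were chosen after their values were seen. Sema6a was high in all 5, with 213, 332, 147, 211, and 198 CPM. Plxna4 was high in 4 of them, with 183, 225, 264, 275, and 51.0 CPM, and lowest in cluster 22. The receptor Ephb1 was found mainly in clusters 18 and 22, with 0.155, 1.36, 0.111, 11.1, and 7.73 CPM. Nrp1 was highest in cluster 17, with 1.04, 10.7, 28.5, 9.51, and 1.68 CPM, and so was Sema3c, with 34.7, 46.4, 66.3, 8.63, and 15.2 CPM. Epha5 stood out in cluster 11, with 20.3, 91.7, 11.6, 31.1, and 9.62 CPM. Robo2 had 30.7, 19.3, 44.4, 107, and 109 CPM, with the highest values in the 2 clusters that held Ephb1. Plxnc1 had 45.4, 41.9, 21.7, 30.2, and 3.88 CPM and was lowest in cluster 22. Cluster 17 had the lowest level of Plxnd1, with 23.0, 28.2, 2.52, 33.4, and 20.6 CPM.

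**Figure D5:**
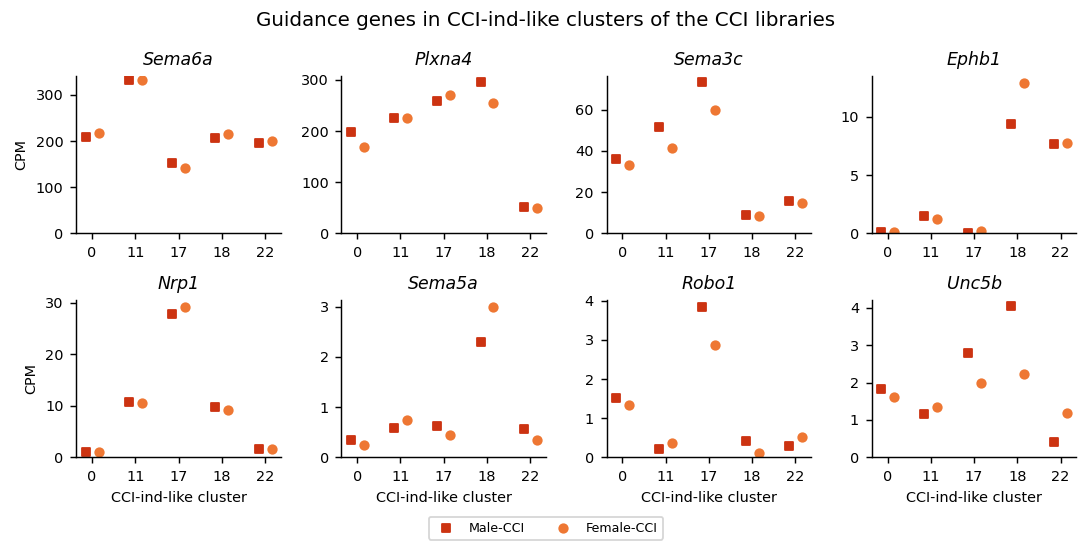
Level in CPM of 8 guidance genes, chosen after their values were seen, in the 5 CCI-ind-like clusters, with a square for Male-CCI and a circle for Female-CCI. Sema6a lies at 147 to 332 CPM (mean of 2 libraries) in every cluster, whereas Ephb1 reaches 11.1 and 7.73 CPM in clusters 18 and 22 and at most 1.36 CPM in the others.

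Genes around the guidance receptors were followed as 2 lists in the same fits, and the members named here were chosen after their values were seen. Of 47 genes that carry the signal of guidance receptors into the cell, 12 rose and 2 fell in all neurons after CCI (29.8%, median log2 fold change 0.19), against the 27.8% of all genes. Rnd1, a small GTPase that binds plexins, had 0.604 and 0.807 CPM in sham and 3.93 and 3.78 CPM in CCI (log2 fold change 2.50, adjusted p = 4.47e-05). Dock1, an activator of Rac, had 0.647 and 0.823 CPM in sham and 2.93 and 2.90 CPM in CCI (log2 fold change 2.03, adjusted p = 7.89e-05). Srgap1, a GTPase-activating protein that binds Robo receptors, had 69.4 and 73.2 CPM in sham and 135 and 135 CPM in CCI (log2 fold change 0.98, adjusted p = 2.31e-05), and Crmp1, which acts in semaphorin signaling, had 75.8 and 84.9 CPM in sham and 166 and 167 CPM in CCI (log2 fold change 1.11, adjusted p = 4.1e-05). All 4 were higher in both CCI libraries than in both sham libraries. The kinase Limk1 fell, with 61.2 and 53.3 CPM in sham and 36.3 and 34.5 CPM in CCI (log2 fold change -0.64, adjusted p = 0.000402). Of 27 co-receptors and other guidance cues 11 rose and 5 fell (59.3%, median 0.13). They include Flrt3, an Unc5 ligand that is also 1 of the CCI-ind markers, Chl1, a cell adhesion molecule of semaphorin receptors, with 36.7 and 43.3 CPM in sham and 231 and 206 CPM in CCI (log2 fold change 2.51, adjusted p = 1.83e-05), and Draxin, a guidance cue that binds netrin receptors, with 2.79 and 3.09 CPM in sham and 8.49 and 9.17 CPM in CCI (log2 fold change 1.64, adjusted p = 2.22e-05). Rgma, a ligand of Neo1, had 1.29 and 1.22 CPM in sham and 2.85 and 3.06 CPM in CCI (log2 fold change 1.29, adjusted p = 0.000158). Omg, an inhibitor of axon growth in myelin, fell, with 2.31 and 2.12 CPM in sham and 1.32 and 0.882 CPM in CCI (log2 fold change -0.95, adjusted p = 0.0067). Between Sprr1a+ and Sprr1a- neurons of the CCI libraries 22 of the 47 (16 higher, 6 lower, 46.8%, median log2 fold change 0.29) and 22 of the 27 (12 higher, 10 lower, 81.5%, median -0.03) were called, against 45.6% of all genes. Both lists were chosen with earlier results of these data known, and the study itself names Chl1 among injury-induced genes. The shares of the lists are therefore a description, with no set test.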

How the data were processed

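The authors deposited matrices of UMI counts (whole numbers, genes by cell barcodes), made from 10x Chromium 3' libraries (v3) with Cell Ranger on mm10. The version is given as 2.1.1 in the submitters' notes and as 3.0.2 in the matrix headers. From these counts, cells with at least 1500 detected genes and at most 10% mitochondrial UMIs were kept. The automatic Scrublet threshold (scanpy 1.11.5, expected rate 0.1) marked few cells, so the highest-scoring cells were removed in the number that the study lists for each library. Cells were integrated and clustered in Seurat 5.3.0 (R 4.3.3) at resolution 0.8 without the 62 genes, and clusters were named from marker lists. UMIs were summed per library, class and Sprr1a state (at least 10 cells per sum), filtered with filterByExpr, TMM-normalized and tested with edgeR 4.0.16 (robust quasi-likelihood, Benjamini-Hochberg over all genes). The scripts were tested on simulated data.

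The guidance genes, the gene lists and the tests were chosen with earlier results of these data known. Library values are given for genes called in all neurons, for the 6 largest changes between Sprr1a+ and Sprr1a- neurons, for up to 8 genes called in 3 classes of injured or in any class of spared neurons, and for the 12 genes with the largest ratio of the highest to the second class among those of at least 20 CPM. Genes outside this rule were named after their values were seen. Libraries hold pooled mice, so p-values do not measure the spread between mice. They rest on 2 sums per group and on a spread that edgeR estimates in part from all genes together. Very small p-values are therefore not a measure of 2 pools alone. Between Sprr1a+ and Sprr1a- neurons they rest on the differences within the 2 CCI libraries. The alternatives tried were the test of DESeq2 1.42.0, size factors of the RLE type, no filter on low counts, the sex of the library as a replicate block, leaving out each library, doublets kept, at least 3000 genes per cell, other limits for Sprr1a and other clusterings. Leaving out clusters with SGC markers and leaving out shared barcodes were added after the data were seen. Exact intervals cover counting error only.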

Additional observations from a re-analysis of the deposited data

Results flagged for a closer look

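For 32 guidance genes the effect of injury (Sprr1a+ neurons after CCI compared with Sprr1a- sham neurons) differed between NF1-, NF2-, and NP1-like neurons in the interaction test of edgeR, with Benjamini-Hochberg adjusted p over all genes, of which 39.2% passed. The 16 genes given here are those with opposite calls or with library values under the rule for named genes. The classes come from the same 4 libraries, and the test had no term for the library. Of the 32 genes, Slit2, Sema7a, Unc5a, and Plxnb1 passed the filter on low counts in 1 class only.

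Opposite calls were found for 7 of them. For Sema5a the log2 fold change was 3.13 in NF1-like neurons and -1.95 in NF2-like neurons (adjusted p = 2.93e-13). Efnb2 had -1.87 in NF1-like against 2.89 in NF2-like and 3.35 in NP1-like neurons (adjusted p = 2.4e-09). Plxna1 had -0.76 in NF1-like and 1.66 in NP1-like neurons (adjusted p = 0.000233). Nrp2 had -0.52, -1.13, and 2.21 in NF1-, NF2-, and NP1-like neurons (adjusted p = 0.000351). Slit1 had 0.59 in NF1-like and -0.83 in NP1-like neurons (adjusted p = 0.00136), and Unc5d 1.23 and -0.97 in the same classes (adjusted p = 0.00929). Sema3d was lower in both NF classes and higher in NP1-like neurons (adjusted p = 0.000186), from the few UMIs given above. Apart from those of Sema5a and Efnb2, these opposite calls rest on NP1-like neurons. The sham and CCI cells of that class lay mainly in different clusters, and the part of this was not tested.

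A further 4 genes were called the same way in all 3 classes, by different amounts. Sema3c had log2 fold changes of 3.69, 3.87, and 0.74 in NF1-, NF2-, and NP1-like neurons (adjusted p = 2.55e-08). Plxna4 had 1.32, 0.99, and 3.50 (adjusted p = 5.4e-06), and Sema3f had -3.64, -2.39, and -1.50 (adjusted p = 0.00246). Ephb2 had 1.00 and 3.33 in the NF1- and NF2-like neurons and rested on 1 sham UMI in NP1-like neurons (adjusted p = 0.0018).

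The remaining 5 genes were called in 1 or 2 classes or in none. Plxnc1 had log2 fold changes of -0.34, 0.11, and -2.93 in NF1-, NF2-, and NP1-like neurons and was called in NP1-like neurons only (adjusted p = 1.12e-10). Efnb1 had -1.65 and -1.93 in the NF1- and NF2-like neurons (adjusted p = 0.0217). Slit2 had -1.60 (adjusted p = 0.00497) and Sema7a -3.90 (adjusted p = 0.0368) in NF1-like neurons, the 1 class in which each passed the filter on low counts. Plxnb1 passed that filter in NP1-like neurons alone and was not called there, with 0.04 (adjusted p = 0.0139).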

How the results depend on the processing

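No result reversed. In all neurons 15 to 25 guidance genes were called over 13 alternatives, against 19. The lowest and highest counts, 15 and 25, came from leaving out Male-Sham and Female-Sham. Without Male-Sham 7 genes were called lower, in place of 11. Between Sprr1a+ and Sprr1a- neurons 30 to 45 were called against 42, and in injured neurons by class 62 to 87 against 79 (71 to 76 with a library left out). In spared neurons by class the count was less stable, 20 to 29 with a library left out against 24. It was 11 in DESeq2, and 12 in place of 23 over 9 classes without neurons that held a Sprr1a UMI. The cause was not tested. The 12 genes named for their pattern over classes kept the same highest class under 4 other clusterings and without the clusters that held SGC markers.

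The male and the female libraries share only a sex and a replicate number, with 2 pairs and no common animals. The deviations of the male pair from the group means had a Pearson r of 0.562 over 17233 genes, 0.295 without the 10 sex-chromosome genes. With sex as a replicate block 19 genes were called in all neurons, 78 calls were made in injured and 37 in spared neurons by class. With no replicate block for the CCI library 42 were called between Sprr1a+ and Sprr1a- neurons. Genes with few UMIs are limited by depth, and 2 pools per surgery limit all tests.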

Other observations

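An unnamed neuronal cluster led by Calb1 (cluster 23) entered the comparison of all neurons but no class, and 5 of the 8 SGC markers were raised in it. It held Unc5d, a netrin receptor gene, at 96.5 and 90.4 CPM in Male-Sham and Female-Sham and at 132 and 137 CPM in Male-CCI and Female-CCI. In another unnamed neuronal cluster (cluster 4) Unc5d had 12.2, 12.5, 19.6, and 11.2 CPM in the same libraries, and in a further one (cluster 8) at most 0.103 CPM. The last unnamed neuronal cluster (cluster 20) held Epha5, a receptor of A-type ephrins, at 135 and 127 CPM in sham and at 171 and 178 CPM in CCI. These levels were chosen after they were seen and are given without a test.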
